A study of Mus musculus with 10 samples.

Results

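The genes described here are 10 acute-phase serum proteins, measured as RNA in the arthritic synovium of mice: Saa1, Saa2, Saa3, Saa4, Hp, Hpx, Orm1, Orm2, Serpina3n and Cp. They are 10 of 18128 genes of the table and have 19 of its 39993 probe sets. A probe set belongs to a gene if the platform annotation names that gene alone, and each gene is represented by its probe set of highest mean over all arrays, with the others used as a check. The genes were taken up because the scores of Saa1 were already known to range widely over these arrays, so the spread between mice is given below as a description and without a test.

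Tissue came from 2 groups of male DBA/1J mice labelled as 8 weeks old. The maslinic acid group (5 mice) received maslinic acid, a triterpene from olives, suspended in corn oil and given by mouth every day, 200 mg for each kg the mouse weighed. The vehicle group (5 mice) received corn oil. All 10 mice carried collagen antibody-induced arthritis, a passive model in which 1 mg of antibody to type II collagen was injected into the abdomen on day 8. Lipopolysaccharide, 25 µg, followed on day 11, a day before the mice were killed (day 12). The antibody is given ready made, so the model holds no immune response of the mouse's own to collagen, and lipopolysaccharide by itself is a strong inducer of acute-phase genes, which both groups received. The arrayed mice were picked from larger groups by a criterion that the labels do not give. Untreated mice were not analysed here, so no level can be set against a healthy joint.

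The acute-phase response is the change in plasma proteins that follows infection or injury. Interleukin 6, interleukin 1 and tumour necrosis factor reach the liver and act through the transcription factors STAT3, C/EBP-beta, C/EBP-delta and NF-kB. Hepatocytes are the main source of these proteins, and Saa3 in the mouse is made chiefly outside the liver, by macrophages, fibroblasts and fat cells. Serum amyloid A proteins bind high-density lipoprotein and attract leukocytes. Haptoglobin (Hp) captures free haemoglobin and hemopexin (Hpx) captures haem. The orosomucoids (Orm1, Orm2) are acid glycoproteins that carry small lipophilic molecules, Serpina3n inhibits serine proteases of leukocytes, and ceruloplasmin (Cp) is the copper-carrying ferroxidase of plasma.

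The 4 Saa genes neighbour each other on mouse chromosome 7 in the RefSeq gene table (GRCm38.p6), in the order Saa3, Saa4, Saa1, Saa2. RefSeq promoter windows, 250 bases before to 50 bases after the start of the transcript, were held for 8 of the 10 genes, which leaves Hp and Orm1. The windows of the 4 Saa genes and of Serpina3n are shown because these genes follow different patterns over the arrays below. They lie in GRCm38.p6 at chr7:46742931-46743230 on the minus strand (Saa1), chr7:46751583-46751882 on the plus strand (Saa2), chr7:46715627-46715926 on the minus strand (Saa3), chr7:46732554-46732853 on the minus strand (Saa4) and chr12:104406458-104406757 on the plus strand (Serpina3n). Capitals mark matches, on either strand, to 3 motifs chosen after the windows had been read: a C/EBP site (TTGCNNAA), an NF-kB site (GGG, any 2 bases, then TTTCC) and a STAT site (TTCNNNGAA).
Saa1: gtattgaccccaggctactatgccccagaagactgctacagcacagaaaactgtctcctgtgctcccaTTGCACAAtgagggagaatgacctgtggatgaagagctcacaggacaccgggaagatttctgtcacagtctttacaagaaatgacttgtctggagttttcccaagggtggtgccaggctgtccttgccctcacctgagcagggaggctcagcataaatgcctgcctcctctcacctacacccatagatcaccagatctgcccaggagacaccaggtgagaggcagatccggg
Saa2: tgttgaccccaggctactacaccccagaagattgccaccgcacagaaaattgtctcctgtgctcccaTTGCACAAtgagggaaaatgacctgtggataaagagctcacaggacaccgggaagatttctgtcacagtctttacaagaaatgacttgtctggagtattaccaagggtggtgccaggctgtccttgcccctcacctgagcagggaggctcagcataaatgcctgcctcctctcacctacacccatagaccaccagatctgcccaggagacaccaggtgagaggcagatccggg
Saa3: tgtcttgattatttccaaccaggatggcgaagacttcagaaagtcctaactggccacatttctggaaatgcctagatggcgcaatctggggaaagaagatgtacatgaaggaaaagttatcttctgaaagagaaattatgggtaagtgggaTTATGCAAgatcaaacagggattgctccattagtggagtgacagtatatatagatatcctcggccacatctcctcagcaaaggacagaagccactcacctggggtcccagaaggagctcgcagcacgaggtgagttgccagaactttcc
Saa4: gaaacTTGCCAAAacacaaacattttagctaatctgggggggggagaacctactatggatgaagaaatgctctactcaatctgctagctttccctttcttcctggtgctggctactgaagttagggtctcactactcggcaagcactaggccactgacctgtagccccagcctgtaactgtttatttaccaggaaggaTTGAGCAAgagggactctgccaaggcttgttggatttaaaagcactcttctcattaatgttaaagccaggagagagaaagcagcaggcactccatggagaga
Serpina3n: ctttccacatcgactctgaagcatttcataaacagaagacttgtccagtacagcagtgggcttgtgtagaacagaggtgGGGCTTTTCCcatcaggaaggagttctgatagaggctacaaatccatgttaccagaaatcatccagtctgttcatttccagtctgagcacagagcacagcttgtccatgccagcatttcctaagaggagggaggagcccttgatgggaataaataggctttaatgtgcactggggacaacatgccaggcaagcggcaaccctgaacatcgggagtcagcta

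The C/EBP letters occurred in 10.8% of all 32851 RefSeq windows of this length, the NF-kB letters in 1.63% and the STAT letters in 8.3%. Saa1 held 1 C/EBP match beginning 182 bases upstream of the start, and Saa2 the same 8 letters 183 bases upstream. Saa3 held 1, 99 bases upstream, and Saa4 held 2. Hpx and Orm2 held 1 each, and Cp held 1 in the window of 1 of its 2 annotated starts. The window of Serpina3n held no C/EBP match and was the only one of the 8 genes with the NF-kB letters, 171 bases upstream. None held the STAT letters. In a global alignment the Saa1 and Saa2 windows were identical at 287 of 299 aligned bases (96.0%), against 65.1% for Saa1 and Saa3 and 61.6% for Saa1 and Saa4. These matches describe the letters of the windows, and binding was not measured.

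The values are deposited scores of single-colour Affymetrix probe sets, 1 array per mouse, whose scale is unknown. Levels resemble log2 intensities, with array medians between 6.74466 and 6.74493, but differences between arrays are very small: 93.5% of probe sets had a range under 0.001. A difference is therefore no log2 fold change, and a spread in 1 probe set cannot be set against that in another. Group differences are given as Hedges' g, the maslinic acid mean less the vehicle mean, divided by the pooled SD of the groups, with a 95% interval. Positions of single arrays are given as z-scores, in SDs of the gene over its 10 arrays. Replicates are labelled as biological, so p-values measure the spread between mice. Vehicle replicate 3 stood apart before any of these results: it was the lowest array in 15.1% of all 18128 genes and in 20.4% of the 6743 with 10 distinct values, and its array quality weight in limma was 0.244, next to 0.198 for vehicle replicate 5 and 0.696 to 3.85 for the others. Genes of synovial fibroblasts and lining were measured, with the lubricin gene Prg4 at 11.5, Dcn at 13.0, Thy1 at 7.06 and Has1 at 6.92 in both groups. Muscle genes were measured too, with Acta1 at 13.3, Myh4 at 12.6 and Myh2 at 6.9 in both groups. How much of the tissue was synovium was not tested.

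Vehicle replicate 3 was the lowest of all arrays in 8 of the 10 acute-phase genes, the exceptions being Saa4 and Orm1. Its z-scores there were -2.78 for Saa3, -2.62 for Hp and for Serpina3n, -2.54 for Cp, -2.19 for Hpx and -2.12 for Saa1. Saa1 scored 7.48, 7.67, 7.82, 7.48 and 7.43 in maslinic acid mice, against 7.61, 7.84, 6.99, 7.33 and 7.77 in vehicle mice (replicates 1 to 5 in each). Both the highest and the lowest array belonged to the vehicle group, and all 5 maslinic acid values lay inside its range. Its range was 0.851, and 0.517 without vehicle replicate 3. Saa2 scored 6.71, 6.81, 6.91, 6.72 and 6.70 in maslinic acid mice, against 6.77, 6.91, 6.57, 6.67 and 6.88 in vehicle mice, which is nearly the same order of mice (rho = 0.988), with maslinic acid replicate 3 and vehicle replicate 2 at the top.

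Saa1 and Saa2 were not told apart by the probe sets used here. The probe set used for Saa1 and that for Saa2 were designed from the same RefSeq record, which the RefSeq table gives to Saa2, and their suffixes mark probes shared with related sequences. The other Saa1 probe set comes from a record given to Saa1 and has no such suffix. Over the 10 arrays the first correlated with it at r = 0.995 and with the Saa2 probe set at 0.975. The other Saa1 probe set correlated with the Saa2 probe set at 0.96. Whether shared probes or a shared change of the 2 genes gave these values was not tested. The statements on Saa1 are therefore made for the pair of genes.

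**Figure D1:**
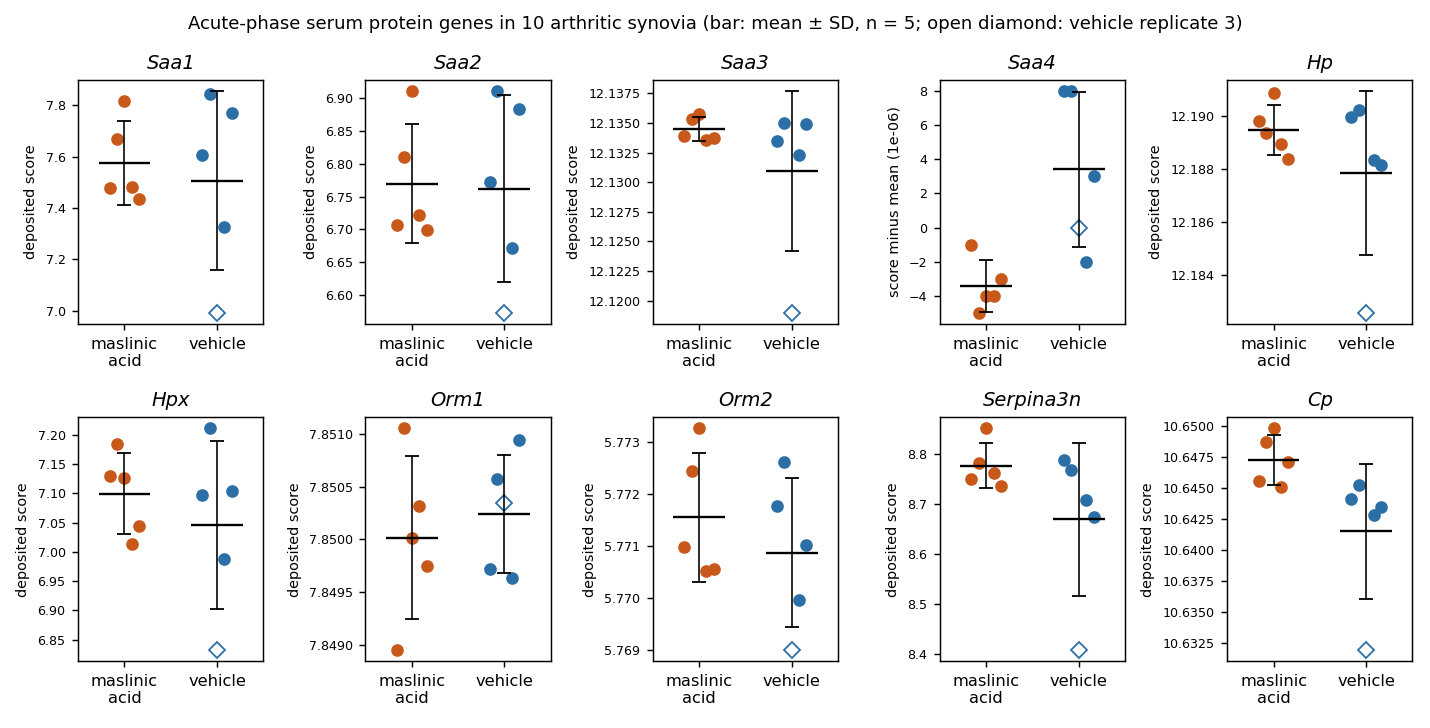
Deposited score (vertical axis, different for each gene) of the 10 acute-phase genes in maslinic acid and vehicle mice, each point 1 array, with the mean and SD of 5 arrays; for Saa4 the axis is the distance from its mean in units of 1e-06. The open diamond, vehicle replicate 3, is the lowest point in 8 of 10 panels, and the groups overlap in all of them.

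Saa3, the serum amyloid A of macrophages and fibroblasts, had a different shape. It scored 12.1339, 12.1353, 12.1358, 12.1336 and 12.1338 in maslinic acid mice, against 12.1335, 12.1350, 12.1190, 12.1323 and 12.1349 in vehicle mice. Apart from vehicle replicate 3, its z-scores stayed between -0.07 and 0.63. Haptoglobin followed, with 12.1898, 12.1894, 12.1909, 12.1890 and 12.1884 in maslinic acid mice, against 12.1900, 12.1903, 12.1826, 12.1883 and 12.1881 in vehicle mice. Vehicle replicate 3 was again below all the others, which lay close together. Serpina3n, the protease inhibitor, scored 8.75, 8.78, 8.85, 8.76 and 8.74 in maslinic acid mice, against 8.79, 8.77, 8.41, 8.71 and 8.68 in vehicle mice. Its range was 0.445, and 0.177 without vehicle replicate 3.

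Hemopexin scored 7.13, 7.18, 7.13, 7.01 and 7.04 in maslinic acid mice, against 7.10, 7.21, 6.83, 6.99 and 7.10 in vehicle mice. Its order of mice was close to that of Saa1, with vehicle replicate 2 highest and vehicle replicates 3 and 4 lowest. Orm2 had z-scores of -0.17, 0.94, 1.56, -0.53 and -0.50 in maslinic acid mice, against 0.42, 1.07, -1.69, -0.95 and -0.15 in vehicle mice, again with maslinic acid replicate 3 and vehicle replicate 2 on top. Orm1 had -1.83, 1.43, -0.18, 0.29 and -0.59 in maslinic acid mice, against -0.64, 0.68, 0.34, -0.77 and 1.25 in vehicle mice. Its lowest and highest arrays were both of the maslinic acid group. The orosomucoid genes are close copies next to each other on chromosome 4, and probes may be shared between them.

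The scores of Saa4, the constitutive serum amyloid A, barely varied, as did those of many probe sets here. The median SD of all probe sets was 6.68e-06, and the range of Saa4 was 1.3e-05, rank 23702 of 39993 with the widest first. Its 10 arrays held 8 distinct values, and they lay 1, 5, 4, 4 and 3 millionths of a score unit below its mean in maslinic acid mice. In vehicle mice replicates 1 and 2 lay 8 millionths and replicate 5 lay 3 millionths above the mean, replicate 3 lay on it and replicate 4 lay 2 millionths below. Values were deposited with 6 decimals, so these differences lie in the last one or the one before it. The other Saa4 probe set correlated with it at r = 0.560 over the 10 arrays.

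**Figure D2:**
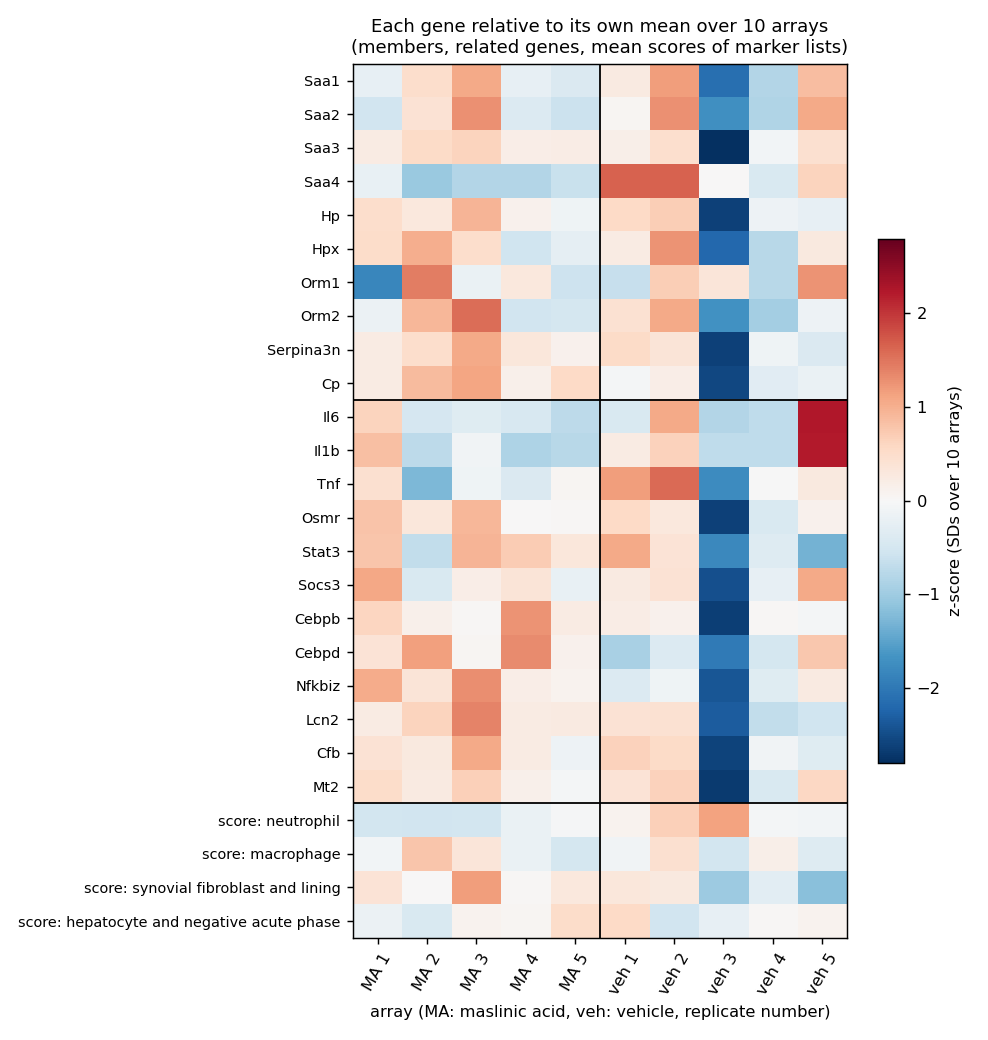
Colour gives the z-score of each row over its 10 arrays (columns, maslinic acid mice left of vehicle mice) for the 10 acute-phase genes, 12 related genes and the mean scores of 4 marker lists. The column of vehicle replicate 3 is low for most acute-phase and related genes and has the highest neutrophil score, and Il6 and Il1b peak in vehicle replicate 5.

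How far the genes shared an order of mice depended on the gene and on 1 array. The measure was Pearson's r with Saa1 over 10 arrays, given without a p-value because the genes were chosen with the variation of these arrays known. Over 9 relations it was 0.975 for Saa2, 0.906 for Hpx, 0.897 for Orm2, 0.851 for Saa3, 0.829 for Hp, 0.784 for Serpina3n, 0.773 for Cp, 0.308 for Orm1 and 0.260 for Saa4. Spearman's rho was 0.988, 0.794, 0.915, 0.830, 0.673, 0.636, 0.491, 0.479 and 0.104 in the same order. Much of this came from 1 mouse. Without vehicle replicate 3, r remained at 0.988 for Saa2, 0.883 for Saa3, 0.847 for Orm2 and 0.782 for Hpx, and was 0.599 for Orm1, 0.552 for Hp, 0.389 for Saa4, 0.379 for Serpina3n and 0.362 for Cp, so that Orm1 came above Hp. Without the 2 arrays farthest from the median of Saa1, vehicle replicates 3 and 2, the values were 0.985 for Saa2, 0.900 for Saa3, 0.818 for Orm2, 0.703 for Hpx, 0.562 for Orm1, 0.464 for Hp, 0.462 for Cp, 0.395 for Serpina3n and 0.144 for Saa4. For Hp, Serpina3n and Cp the relation with Saa1 thus rested largely on those arrays. After removing group means, r was 0.881 for Cp and 0.821 for Serpina3n. No more than 5 arrays stood in a group, too few for a correlation within either.

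**Figure D3:**
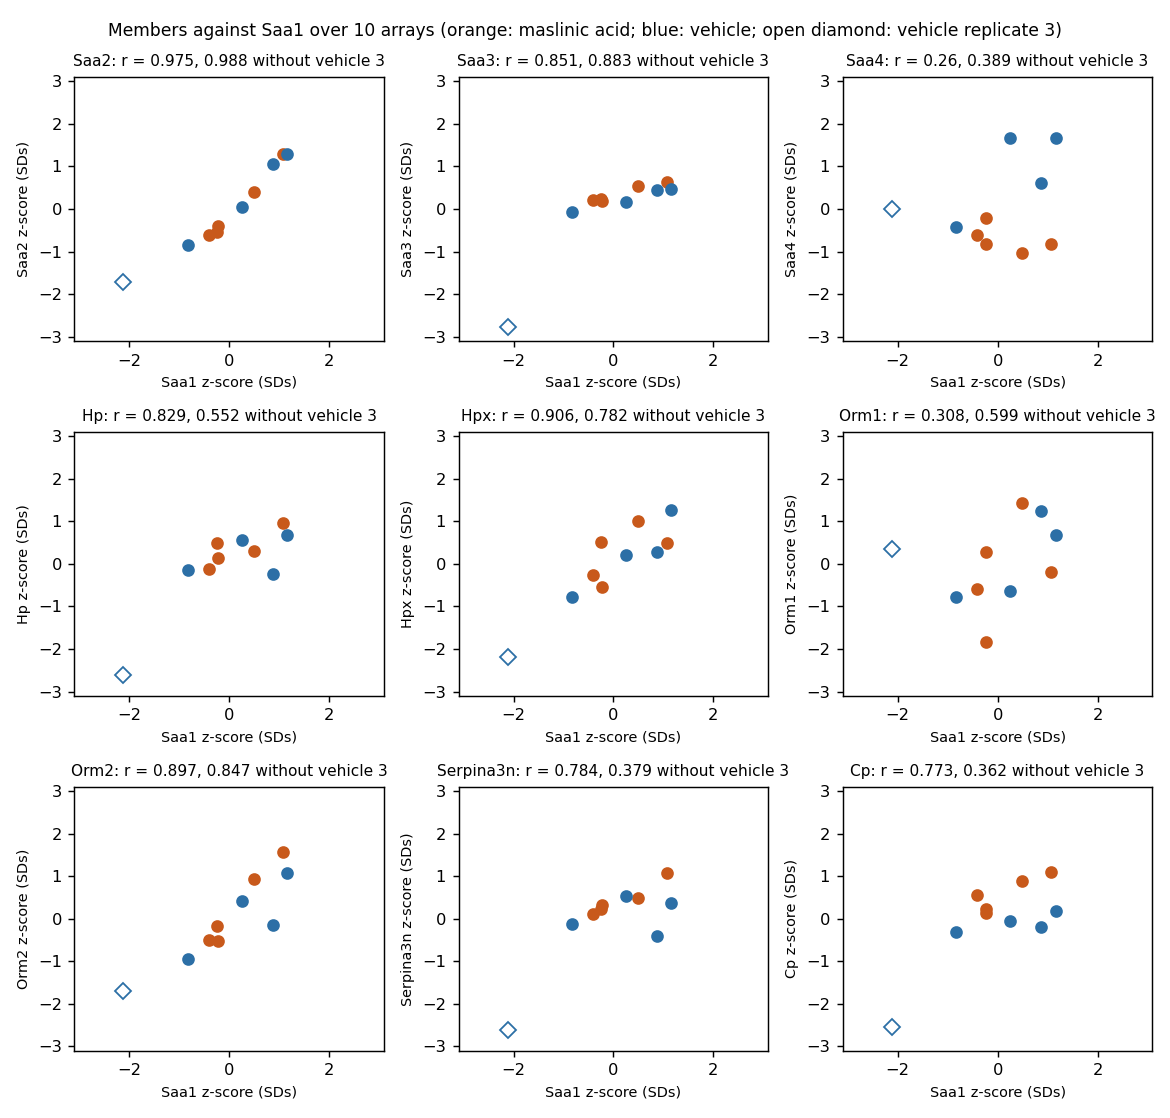
Each panel sets the z-score of 1 gene (vertical axis, SDs over 10 arrays) against that of Saa1 (horizontal axis), with maslinic acid mice in orange and vehicle mice in blue. Saa2, Saa3, Hpx and Orm2 keep rising with Saa1 when the open diamond (vehicle replicate 3) is left out, while Saa3, Hp, Serpina3n and Cp have that array far below all others.

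The genes most like each pattern were sought among the 6743 genes with 10 distinct values, by r over the 10 arrays. Nearest to Saa1 after Saa2 stood Ecscr, an endothelial surface protein (0.941), Mmp3, the matrix protease stromelysin 1 (0.935), Ccbe1, a factor of lymphatic growth (0.925), and Cyp7b1, an oxysterol hydroxylase (0.923). Without vehicle replicate 3 these stood at 0.91, 0.89, 0.85 and 0.84. Nearest to Saa3 were the metallothioneins Mt2 (0.974) and Mt1 (0.973), metal-binding proteins that are acute-phase genes themselves, which stood at 0.77 and 0.82 without that array. They were followed by Farsb, a phenylalanyl-tRNA synthetase subunit (0.961), Cct8, a chaperonin subunit (0.961), and Map3k8, a kinase of inflammatory signalling (0.958), at 0.45, 0.62 and 0.78 without it.

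Hp and Serpina3n had the same closest gene, complement factor B (Cfb), at r = 0.996 with Hp and 0.989 with Serpina3n. Without vehicle replicate 3 these were 0.98 and 0.93. Whether Cfb would stay closest was not tested, since the closest genes were picked over all 10 arrays and not sought again without that array. Hp and Serpina3n correlated with each other at 0.981, and at 0.87 without it. Hp was also close to Fth1, the ferritin heavy chain that stores iron (0.990, and 0.94 without it), Osmr, the oncostatin M receptor (0.973 and 0.83), and Agfg1 (0.972 and 0.85). Serpina3n was also close to the membrane proteins Tmem176b (0.975 and 0.86) and Tmem176a (0.970 and 0.80) and to Oat, ornithine aminotransferase (0.970 and 0.87). All of these share the 10 arrays and their normalization.

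The comparison of maslinic acid with vehicle asked whether the treatment went with a change in these genes. None of the 10 genes passed, with adjusted p between 0.485 and 0.986 in limma with Benjamini-Hochberg adjustment over all probe sets. This holds for all probe sets of the table as well, of which 0 of 39768 passed (0% called), with 3617 (9.10%) at an unadjusted p under 0.05 and a lowest adjusted p of 0.147. The exact Wilcoxon test had 2741 at an unadjusted p under 0.05, and its 0 after adjustment says nothing, since its smallest possible p is 0.00794 and only 544 probe sets had groups that did not overlap. Means were higher with maslinic acid in 8 of the 10 genes, against 48.1% of all genes, with a median g of 0.44 against 0.00. Without vehicle replicate 3 they were higher in 5 of 10, with a median g of 0.08. In bulk tissue, fewer cells of a type and less RNA per cell cannot be told apart.

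The serum amyloid A genes of the inflammatory response showed no detectable difference. Saa1 averaged 7.58 ± 0.163 in maslinic acid mice and 7.51 ± 0.350 in vehicle mice (SD, n = 5 each), with g = 0.23 (95% interval -0.90 to 1.35, limma adjusted p = 0.908), and g was -0.27 without vehicle replicate 3. Saa2 had g = 0.06 (-1.06 to 1.18) and -0.36 without that array. Saa3 had g = 0.66 (-0.52 to 1.80), with an exact permutation p of 0.230, two-sided over the 252 assignments of the arrays. The intervals reach beyond 1 SD, so differences of that size are neither shown nor excluded. Data were simulated for 5 and 5 arrays with independent normal noise, equal in both groups and without an outlying array. There 4% of probe sets shifted by 2 SD were recovered, 64% at 4 SD and 98% at 6 SD. The real arrays differ from that setting, so these rates do not carry over directly.

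The haem and haemoglobin carriers gave g = 0.64 for Hp (-0.54 to 1.78) and 0.43 for Hpx (-0.72 to 1.55). Without vehicle replicate 3 they gave 0.27 and -0.004. The orosomucoids gave -0.30 for Orm1 (-1.42 to 0.84) and 0.46 for Orm2 (-0.69 to 1.59), whose g became 0.16 when vehicle replicate 3 was left out and 0.81 when vehicle replicate 2 was. Serpina3n averaged 8.78 ± 0.0453 in maslinic acid mice and 8.67 ± 0.154 in vehicle mice (SD, n = 5 each), with g = 0.86 (-0.36 to 2.03) and an exact permutation p of 0.127. The 4 vehicle arrays other than replicate 3 spread over 8.68 to 8.79, within which 4 of 5 maslinic acid arrays lay.

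Ceruloplasmin was the acute-phase gene that stood highest with maslinic acid relative to its spread. Cp scored 10.6455, 10.6487, 10.6498, 10.6451 and 10.6471 in maslinic acid mice, against 10.6441, 10.6452, 10.6319, 10.6428 and 10.6434 in vehicle mice. Only vehicle replicate 2 reached into the range of the maslinic acid mice, above their lowest array. The difference was g = 1.27 (-0.04 to 2.51), with an unadjusted limma p of 0.0495, an adjusted p of 0.549 and an exact permutation p of 0.0159 (the smallest possible is 0.00794). It did not pass. Unlike for Saa1, the sign did not rest on vehicle replicate 3, without which g was 1.78. That g was raised by a smaller vehicle SD, 0.00105 without that array against 0.00544 with it. Vehicle replicate 3 was the lowest array in all 8 probe sets of Cp, so part of the mean difference came from it.

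All 8 probe sets of Cp had higher means with maslinic acid, where 44.0% of all probe sets did. Their g ran from 0.63 to 1.74, and 5 of the 8 had an unadjusted p under 0.05, against 3.79% of all probe sets higher and 5.31% lower at that level. They read the same gene and are not independent: the 7 others correlated with the main one at r = 0.809 to 0.997 over the 10 arrays. The lowest adjusted p among them was 0.485, in the probe set with a g of 1.74. With the neutrophil marker score as a covariate, the g of Cp was 0.27. This g is the adjusted coefficient over the residual SD of that model, so its size is not directly comparable with 1.27. That score ran from -0.528 to -0.022 in maslinic acid mice and from -0.068 to 1.124 in vehicle mice. Of its 9 genes 7 had 10 distinct values, while S100a8 and S100a9 had 2 each. The part of the score in the difference was not tested. Hephaestin (Heph), the membrane-bound relative of ceruloplasmin, had g = 1.22 (-0.08 to 2.45, limma adjusted p = 0.558).

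Saa4 was the only other gene with an unadjusted p under 0.05 (0.0115 in limma, adjusted p = 0.485), so that 1 of the 10 was higher and 1 lower at that level, against 4.31% and 4.56% of all genes (8.88% in both directions). Its g of -1.81 (-3.19 to -0.36) rests on differences of a few millionths, and it turned to 0.50 after quantile normalization and to -0.48 with arrays centred on their medians. The other Saa4 probe set gave -0.54. None of the 10 genes had groups that did not overlap, which was the case in 1.38% of all genes and 1.36% of all probe sets.

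**Figure D4:**
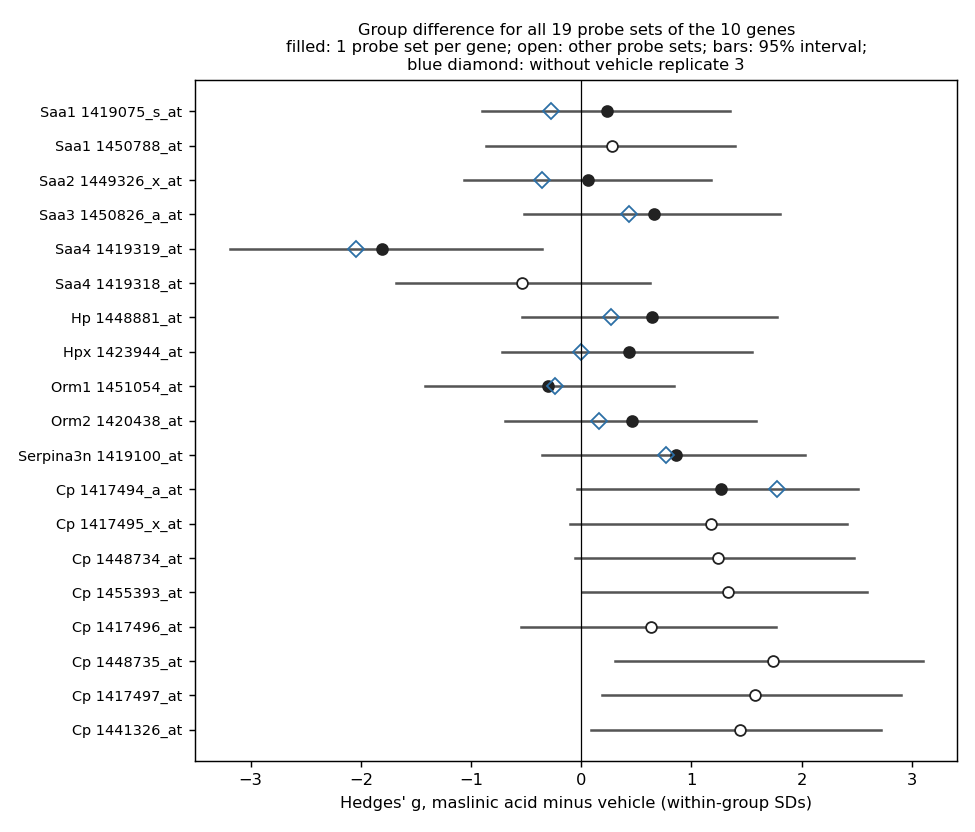
Hedges' g (horizontal axis, maslinic acid minus vehicle, within-group SDs) with its 95% interval for all 19 probe sets of the 10 genes; filled points are the probe sets standing for a gene, open points the others, and blue diamonds the value without vehicle replicate 3. The 8 Cp probe sets all lie above 0 and the Saa1, Saa2 and Hpx diamonds lie at or below 0.

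The spread between mice was larger in vehicle mice for 9 of the 10 genes, by SD, where 81.7% of the genes with 10 distinct values showed the same. The ratio of the vehicle SD to the maslinic acid SD was 6.74 for Saa3, 3.39 for Serpina3n, 3.28 for Hp, 2.68 for Cp and 2.15 for Saa1. Without vehicle replicate 3 it was 1.26, 1.16, 1.16, 0.518 and 1.41, and 7 of 10 were still above 1. With all arrays the share is near that of the genes with 10 distinct values, a set that leaves out Saa4. No such share was computed without vehicle replicate 3.

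The regulators of the response were followed in a list of 20 genes, of which 19 were measured. With maslinic acid 2 were higher and 0 lower by unadjusted p (threshold 0.05), against 4.31% and 4.56% of all genes, and 0 passed after adjustment. The median g was 0.38, and it was 0.20 without vehicle replicate 3, 0.06 without vehicle replicates 3 and 5 and 0.09 after quantile normalization. The 2 were Cebpd, the gene of C/EBP-delta (g = 1.33, 0.01 to 2.59, limma adjusted p = 0.536), and Nfkbiz, the NF-kB cofactor that drives secondary inflammatory genes (1.31, -0.01 to 2.56, adjusted p = 0.545). Vehicle replicate 3 was the lowest array in 14 of the 19, with z-scores of -2.63 for Cebpb, -2.61 for Osmr, -2.46 for Socs3 (the feedback inhibitor of STAT3) and -1.80 for Stat3.

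The cytokines themselves did not all peak in the same mouse. Il6 had z-scores of 0.63, -0.47, -0.35, -0.44 and -0.73 in maslinic acid mice, against -0.43, 1.06, -0.82, -0.72 and 2.25 in vehicle mice. Il1b had 0.84, -0.74, -0.10, -0.86 and -0.78 in maslinic acid mice, against 0.23, 0.65, -0.72, -0.72 and 2.21 in vehicle mice. Vehicle replicate 5 was thus far above all others in both, while the acute-phase genes were mixed there, with 1.25 for Orm1, 1.05 for Saa2, 0.87 for Saa1, 0.62 for Saa4, 0.45 for Saa3, 0.27 for Hpx, -0.15 for Orm2, -0.19 for Cp, -0.23 for Hp and -0.40 for Serpina3n. Tnf was highest in vehicle replicate 2 (1.58), as Saa1 and Hpx were, and lowest in vehicle replicate 3 (-1.76). The g was -0.48 for Il6 (-1.61 to 0.68), -0.60 for Il1b (-1.73 to 0.58), -0.45 for Tnf (-1.58 to 0.70), 0.78 for Stat3, 0.34 for Socs3 and 0.90 for Cebpb, and none of these passed.

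Of 23 other positive acute-phase genes, 20 were measured, 15 with higher means and 5 with lower, and 0 reached an unadjusted p under 0.05 (median g = 0.35, and 0.13 without vehicle replicate 3). The lowest p-values were those of Serping1, the C1 inhibitor (g = 1.17, -0.11 to 2.39), and Lcn2, lipocalin 2, which binds bacterial siderophores (1.14, -0.14 to 2.35). Vehicle replicate 3 was lowest in 11 of the 20. Only 12 of the 20 had 10 distinct values. In others, such as Crp and Fgg with 7 and 5, the direction of the mean rests on the last deposited decimals. Of 10 Serpina3 relatives only Serpina3a (g = 0.02) and Serpina3i (-0.26) had a probe set naming them alone, and the median g of -0.12 was 0.34 without vehicle replicate 5, so probes shared between Serpina3n and its relatives remain possible.

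Of 21 genes for receptors, haem and iron handling and target proteases, 19 were measured, with a median g of 0.19, which was 0.05 without maslinic acid replicate 1 and 0.31 without maslinic acid replicate 3. Cathepsin G (Ctsg), a neutrophil serine protease, was the only one with an unadjusted p under 0.05. Its z-scores were -0.69, -0.35, -1.23, -0.85 and -0.76 in maslinic acid mice, against 0.39, 0.32, 1.98, -0.01 and 1.20 in vehicle mice. The groups did not overlap, but with g = -2.28 (-3.82 to -0.68) it did not pass (limma adjusted p = 0.452). Cd163, the macrophage receptor for haptoglobin bound to haemoglobin, had g = 0.19 (-0.94 to 1.31).

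Hepatocyte genes were mostly too flat on these arrays to show whether they moved with the acute-phase genes. Of 15 listed, 13 were measured, and 4 of these had 10 distinct values. Among those 4, vehicle replicate 3 had z-scores of -2.21 for Serpina1b, where it was lowest, -0.99 for Rbp4, 0.63 for Cps1 and 1.4 for Cyp2e1. Albumin (Alb) scored 6.11 in both groups, with SDs of 3.24e-06 and 4.32e-06 in maslinic acid and vehicle mice, which are differences in the last deposited decimals. Transthyretin (Ttr) had 7 distinct values. Vehicle replicate 3 was the lowest array in 2 of the 13, and the summed level of the list was 88.888 to 88.965 in maslinic acid mice and 88.787 to 89.023 in vehicle mice. An array score has no true zero, so no marker can be called absent. The 2 of lowest p were Rbp4 (g = 1.39, 0.06 to 2.67) and Serpina1b (1.34, 0.02 to 2.60), neither of which passed (limma adjusted p = 0.520 and 0.534).

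Marker lists of cells in the joint had scores at or near an extreme in the array that was lowest in most acute-phase genes. In vehicle replicate 3 the neutrophil score (9 of 11 markers measured) was 1.124, the highest of the 10 arrays. The macrophage score (9 of 10) was -0.525, the lowest, but its markers were divided. C1qa (-2.33), C1qb (-2.24), Cd14 (-2.13), Adgre1 (-1.38) and Cd68 (-1.09) had low z-scores there. Mrc1 (2.1) and Lyz2 (1.73) had their highest value in that mouse, and Csf1r (0.31) and Cd163 (0.29) lay slightly above their means. The score of synovial fibroblasts and lining (12 of 12) was -1.022, above only vehicle replicate 5 at -1.161. Summed neutrophil levels were 104.542 to 104.546 in maslinic acid mice and 104.539 to 104.547 in vehicle mice, those of macrophages 88.473 to 88.496 and 88.469 to 88.491, and those of fibroblasts and lining 117.203 to 117.263 and 117.179 to 117.236. By group, neutrophil markers were lower with maslinic acid in 8 of 9 (median g = -0.57). These 8 include S100a8 and S100a9, which held 2 distinct values each, so their direction rests on the last deposited decimal. Fibroblast and lining markers were higher in 12 of 12 (0.86) and macrophage markers in 6 of 9 (0.25). Genes of 1 list can vary together over the arrays, so these counts are not of independent observations. In any of these lists 0 genes passed. The part of these cells in the acute-phase values was not tested.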

How the data were processed

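RNA of the synovium of 10 mice was read on 1-colour Affymetrix arrays from 100 ng of total RNA, per the labels' protocols. The deposited value of each probe set is treated as a score made by the authors, since R 3.2.1 is the only tool in the submitters' processing notes while for the normalization and the other steps the method is not given in the sources used here. Differences between arrays may have been compressed unequally between probe sets; Hedges' g is unaffected by a linear rescaling of 1 probe set.

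The design had foreseen log2 or another scale. Scores entered limma 3.58.1 under R 4.3.3 (lmFit, then eBayes) as deposited, for two-sided tests without covariates, filter or pseudocount; 225 probe sets with 1 value on all arrays had no test. Benjamini-Hochberg adjustment ran over 39768 probe sets, with calls at 0.05. eBayes estimated 0.503 prior degrees of freedom. Precision is limited by there being 10 arrays. Of the probe sets, 34202 named 1 gene, 931 several and 4860 were unnamed here. Single values had an exact permutation test. A list's score is the mean z-score of its genes. Sequences are RefSeq's. Python 3.11.15, pandas 2.3.3, numpy 2.4.6, scipy 1.17.1 and matplotlib 3.10.9 were used. Simulated data with independent normal noise, equal in both groups, and 50 changed probe sets per size gave 5 false calls in 39993.

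The members and lists were chosen with earlier results of these data known. Genes named are the 10 members, the 5 most like Saa1, Saa3, Hp and Serpina3n, and the 2 of lowest p in each related list. A fixed set of regulators, carriers and markers was named as well. Cps1, Cyp2e1, Crp, Fgg and most single macrophage, neutrophil, muscle and lining markers were named after their values were seen. Permutation p-values of correlations had been planned and are not given, since these arrays led to the choice of genes. No 2 arrays were identical, and the labels name no batch. Alternatives tried were a replicate block, a level filter, quantile normalization, centring on array medians, other priors, array weights, the exact Wilcoxon test, marker scores as covariates, other probe sets and arrays left out; correlations and ranges without vehicle replicate 3, and the median g with single arrays left out, were added after seeing the data.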

Additional observations from a re-analysis of the deposited data

Results flagged for a closer look

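Vehicle replicate 3 lay far from the other 4 vehicle arrays in 3 of the acute-phase genes. The gap between it and the next lowest array, as a share of the group's whole range, was 0.835 for Saa3, 0.816 for Cp and 0.725 for Hp. All 3 lie above 0.71, the value that Dixon's test sets for 5 samples, used here only as a rule for flagging. These were 3 of 20 groups checked. The genes were chosen with the variation of these arrays known, so the usual chance rate of about 1 in 20 does not apply. They also vary together, so the 3 are not separate observations. Without this array g was 0.43 for Saa3, 1.78 for Cp and 0.27 for Hp.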

How the results depend on the processing

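None of the 10 genes, and none in the lists of regulators, other acute-phase genes, Serpina3 relatives and receptors, had an adjusted p under 0.05 under any alternative run. Directions of small differences changed. With array weights, a covariate or the replicate block, g is the fitted group coefficient over the residual SD of that model. Its size there is not directly comparable with the main g. With array weights g was -0.20 for Saa1, -0.31 for Saa2, -0.01 for Hp, -0.08 for Hpx and -0.14 for Orm2, and 3 of 10 genes were higher. With the neutrophil score as a covariate it was -0.60 for Saa1, -0.61 for Saa2, -0.63 for Saa3, -0.45 for Hp, -0.36 for Hpx, -0.13 for Orm2 and -0.21 for Serpina3n, and 1 of 10 was higher. Without vehicle replicates 3 and 5 it was -0.07 for Saa1, -0.13 for Saa2, -0.04 for Hp and 0.06 for Orm1. Saa4 was at 0.50 after quantile normalization. With single arrays left out g ran from -0.27 to 0.53 for Saa1, -0.36 to 0.36 for Saa2, -0.004 to 0.85 for Hpx, -0.75 to 0.07 for Orm1 and 1.07 to 1.78 for Cp; the number of genes with higher means ran from 5 to 9, the lowest without vehicle replicate 3. The cause of these changes was not tested.

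The 2 genes with an unadjusted p under 0.05 became 1 with the replicate block, the robust prior and arrays centred on their medians, and 1 above the median level and over probe sets with 10 distinct values, neither of which holds Saa4. They became 0 after quantile normalization, with the neutrophil covariate and with each gene's probe sets averaged, and 1 to 2 with single arrays left out. The count of 3617 probe sets with an unadjusted p under 0.05 was 1864 above the median level, 1552 and 1581 with 1 value per gene (chosen probe set and mean), and 1350 with 10 distinct values, where fewer were tested; it was 2002 after quantile normalization, 737 with centred arrays, 2186 with the neutrophil covariate and 2614 to 4576 with single arrays left out. Adjusted calls were 0, and 1 with array weights or without maslinic acid replicate 1. The correlation with Saa1 moved for Hp (0.464 and 0.552), Hpx (0.703 and 0.782), Serpina3n (0.395 and 0.379) and Cp (0.462 and 0.362) without the 2 farthest arrays and without vehicle replicate 3, and by rank to 0.794 for Hpx and 0.491 for Cp; for Orm1 it was 0.562 and 0.599, against 0.308, and for Saa4 0.144 and 0.389, against 0.260. The median g of the 10 genes ran from 0.08 to 0.82 with single arrays left out.

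Replicate numbers are shared between groups, but same-numbered arrays correlated at -0.34 to 0.362 in their deviations from the group means, and 4 of 10 correlated best with their own number, so the numbers are not taken as pairs. With the replicate block 3027 probe sets had an unadjusted p under 0.05, Cp had g = 0.95 and Saa4 -1.78. These g are over the residual SD of the block model and are not directly comparable in size with the main ones.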

Other observations

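Other tissue markers were measured beside the acute-phase genes. Muscle markers had higher means with maslinic acid in 12 of 12 genes (median g = 0.32), fat cell markers in 6 of 6 measured (0.87), cartilage markers in 8 of 8 (0.62), endothelial markers in 5 of 6 (0.26) and erythroid markers in 4 of 4 measured (0.15), against 48.1% of all genes, and 0 genes passed in any of them. Genes of 1 list can vary together, so these counts are not of independent observations and 1 mouse can set many directions. In vehicle replicate 2 the z-score was -2.34 for Acta1 and -2.45 for Ckm, but 0.06 for Myh1. Vehicle replicate 3 had the highest erythroid score of the 10 arrays, 1.438, and vehicle replicate 2, which was highest in Saa1 and Hpx, had the lowest muscle score, -1.785, and the lowest fat cell score, -1.601.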
